A study of Mus musculus with 6 samples.

Results

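The 9 genes described here encode 7 of the metabotropic glutamate receptors (Grm2, Grm3, Grm4, Grm5, Grm6, Grm7 and Grm8) and the scaffold proteins Homer2 and Homer3. They were listed by name, with earlier results of these data known, found through the platform annotation, and stand among 22180 genes with a probe set paired with exactly 1 symbol. All 9 were measured, on 11 such probe sets, and for each gene the brightest probe set (the highest mean of the 6 arrays) was used. Amygdala RNA came from male mice of C57BL/6N background, aged 10 to 15 weeks, and was hybridized to arrays of the type GeneChip Mouse Gene 2.0 ST, on which sets of short probes read most mouse transcripts. The WT group held 3 pools of wild-type littermates and the KO group 3 pools of IP3K-A KO mice, and neither group received a treatment. Each pool combined tissue of several mice, so the spread between pools understates that between animals, and nothing in the sources used here describes the KO allele or restricts it to a cell type. The arrays addressed how amygdala gene expression differs without IP3K-A, the kinase that converts IP3 to IP4.

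Metabotropic glutamate receptors are G protein-coupled receptors that adjust synaptic strength on a slower scale than the glutamate-gated channels. Group I receptors, to which Grm5 belongs, act through Gq and phospholipase C to produce IP3, the substrate of the deleted kinase. Group II (Grm2, Grm3) and group III (Grm4, Grm6, Grm7, Grm8) receptors act through Gi/o proteins, which lower cAMP and often damp transmitter release. Homer proteins bind a proline-rich motif in group I receptors, IP3 receptors and Shank scaffolds, and so tie the receptor to calcium stores at the postsynaptic density.

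The deposited values are log2 intensities, so a difference of 1 is a doubling. Levels of different probe sets cannot be compared as amounts of RNA, so genotypes were compared within a probe set. Where a probe set is called brighter or dimmer than another, this refers to its intensity alone. Array medians ran from 6.49 to 6.52, and correlations between arrays across probe sets from 0.988 to 0.993. Itpka, the gene of IP3K-A, lay at 8.85, 8.90 and 8.96 in WT pools 1 to 3 and at 6.76, 6.95 and 6.96 in KO pools 1 to 3, so the labels and the targeted transcript match in every pool. Whether its probes fall within the deleted exons is not given in the sources used here. None of the 9 genes lies on the chromosome of Itpka (0 of 9). Of the markers of the labelled tissue, 10 of 11 measured for GABAergic and central amygdala neurons and 10 of 10 for basolateral amygdala and cortical excitatory neurons were brighter than the median gene. Markers of astrocytes (14 of 14), oligodendrocytes (13 of 13) and striatal neurons (15 of 17) were so about as often. Those of thalamus and habenula (8 of 12) and choroid plexus (3 of 7) were so less often. These counts alone do not set the amygdala apart. In such bulk tissue, fewer cells of a type and less RNA per cell cannot be told apart.

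The 7 receptor genes and Homer2 overlapped between genotypes, and Homer3 lay lower in KO without overlap. That is 1 of 9 genes without overlap (11.1%), near the 13.7% of all genes. KO minus WT on the log2 scale ran from −0.19 (Homer3) to 0.12 (Grm7), with 5 genes higher in KO, 4 lower and a median of 0.01. Over all genes 49.9% were higher in KO and 50.1% lower, with a median of −0.00024. None of the 9 had an adjusted p under 0.05 in limma with Benjamini-Hochberg adjustment over 23521 probe sets (adjusted p from 0.74 to 0.98), while 0.00902% of all genes did. The study's methods asked for a fold over 1.2 together with an unadjusted p under 0.1. By limma 0 of the 9 met this, against 3.01% of all genes (1.24% higher and 1.77% lower in KO), and by the methods' t-test 0 of the 9 did, against 1.82%. At an unadjusted p under 0.05, 1 of the 9 (Homer3) was past the line by limma and by the methods' t-test, against 6.52% and 6.38% of all genes. The 95% interval of the difference included 0 for 8 of the 9, as for 93.5% of all genes. For 6 of the 9 genes the whole 95% interval of the difference lay within 1.2-fold in either direction, as it did for 49.7% of all genes. The exceptions were Grm6, Grm7 and Homer3. The median SD within a genotype was 0.07 over the 9 genes and 0.10 over all genes.

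**Figure D1:**
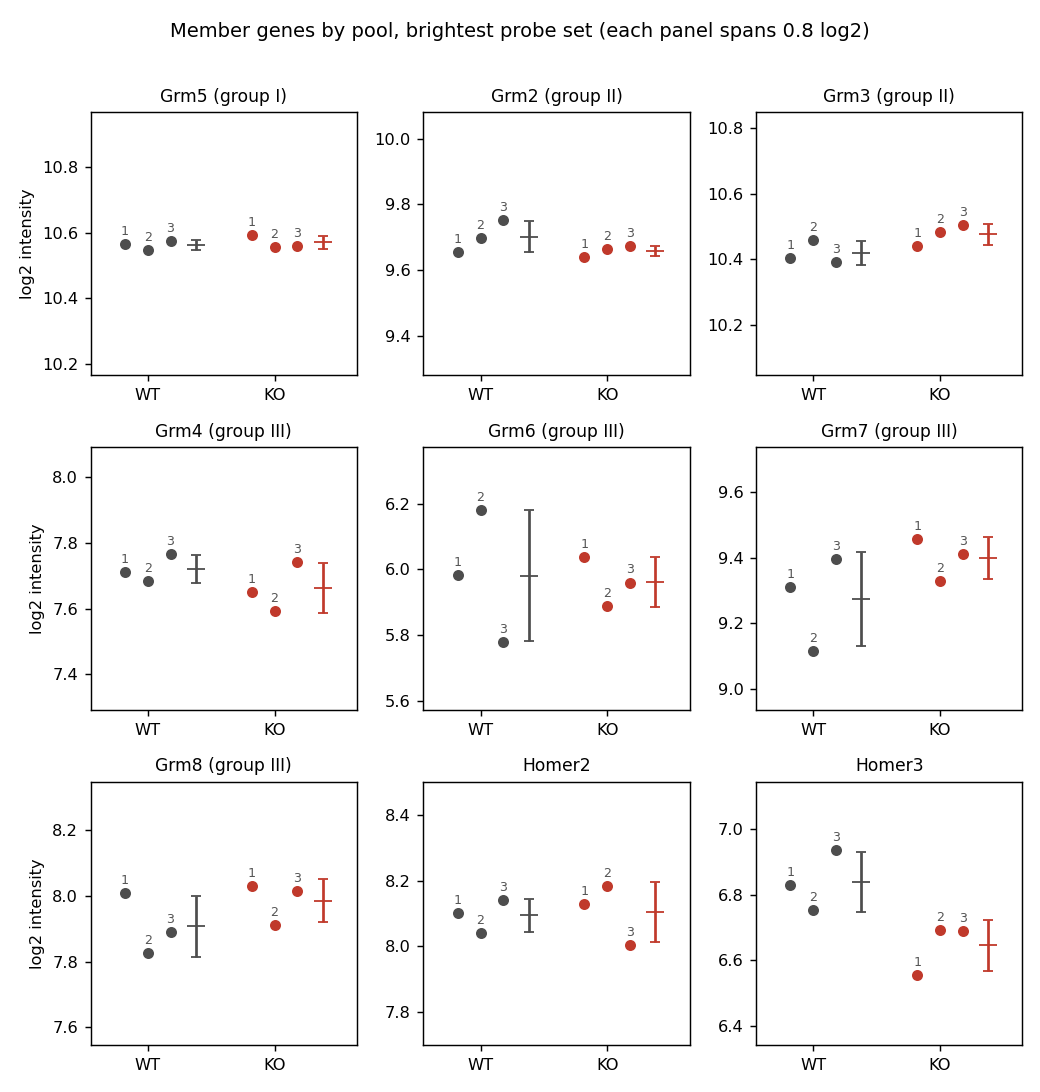
Log2 intensity of the 9 genes in each pool (numbered points), with the mean and SD of 3 WT pools (grey) and 3 KO pools (red) to the right of the points. All panels span the same log2 range; the groups overlap in every gene except Homer3.

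Grm5, the group I receptor that produces IP3 in many forebrain neurons, was nearly identical in all pools. Its log2 intensity was 10.57, 10.55 and 10.57 in the WT pools and 10.59, 10.56 and 10.56 in the KO pools (probe set 17480002). The groups overlapped, and all 6 values fell within a range of 0.05, the narrowest of the 9 genes. KO minus WT was 0.01 (SE 0.05, 95% interval −0.12 to 0.13, adjusted p = 0.98 from limma), which in folds is an interval of 0.922 to 1.10. The sign of so small a difference was not stable: it was −0.01 after repeated quantile normalization and −0.0032 without KO pool 1.

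Of the group II genes, Grm2 is a mainly presynaptic receptor, and Grm3 is found on astrocytes as well as neurons and also responds to the peptide transmitter NAAG. Grm2 read 9.65, 9.70 and 9.75 in WT and 9.64, 9.66 and 9.67 in KO, with WT pool 1 inside the range of KO. KO minus WT was −0.04 (SE 0.06, 95% interval −0.18 to 0.09), and ran from −0.066 without WT pool 1 to −0.019 without WT pool 3. Grm3 read 10.40, 10.46 and 10.39 in WT and 10.44, 10.48 and 10.50 in KO, so that only WT pool 2 reached into the KO range. Its difference was 0.06 (SE 0.06, 95% interval −0.08 to 0.19). Adjusted p from limma was 0.89 for Grm2 and 0.85 for Grm3. Astrocyte markers, given beside Grm3 because astrocytes carry it, averaged 9.38 to 9.46 in WT pools and 9.41 to 9.46 in KO pools, with 7 of 14 higher in KO.

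In all 4 group III genes the groups overlapped, and Grm7 and Grm8 had the largest differences of the 7 receptors. Grm7, a receptor of presynaptic active zones with low affinity for glutamate, read 9.31, 9.12 and 9.40 in WT and 9.46, 9.33 and 9.41 in KO. WT pool 2 was the lowest and KO pool 1 the highest. KO minus WT was 0.12 (SE 0.08, 95% interval −0.07 to 0.32, adjusted p = 0.79 from limma), and it was 0.05 without WT pool 2. A dimmer probe set of Grm7 (17469601) did not show the difference: it read 8.61, 8.56 and 8.65 in WT and 8.62, 8.60 and 8.62 in KO, a difference of 0.003 (SE 0.06, 95% interval −0.13 to 0.14). The gap between the Grm7 probe sets within a pool differed by −0.12 between genotypes (two-sided exact permutation test, p = 0.2).

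Grm8, a presynaptic receptor with a high affinity for glutamate, read 8.01, 7.82 and 7.89 in WT and 8.03, 7.91 and 8.01 in KO. As for Grm7, WT pool 2 was the lowest and KO pool 1 the highest, and the difference of 0.08 (SE 0.07, 95% interval −0.09 to 0.24) was 0.04 without WT pool 2 and 0.13 without WT pool 1. A probe set that the annotation assigns to Grm8 and to the microRNA gene Mir592 was 0.17 higher in KO (SE 0.09, with an unadjusted limma p of 0.13). It belongs to more than 1 gene and was not counted. Grm4, a presynaptic receptor abundant in the cerebellum, read 7.71, 7.68 and 7.77 in WT and 7.65, 7.59 and 7.74 in KO, a difference of −0.06 (SE 0.06, 95% interval −0.21 to 0.09). It ran from −0.099 without KO pool 3 to −0.024 without KO pool 2.

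Grm6 is the receptor by which ON bipolar cells of the retina sense glutamate, and it was dimmer than the median gene here. Its brighter probe set read 5.98, 6.18 and 5.78 in WT and 6.04, 5.89 and 5.96 in KO, with all KO pools inside the range of WT. The difference was −0.02 (SE 0.10, 95% interval −0.26 to 0.23), and it turned to 0.08 without WT pool 2. The dimmer probe set (17262413) read 4.60, 4.67 and 4.93 in WT and 4.40, 4.60 and 4.60 in KO, a difference of −0.20 (SE 0.10, 95% interval −0.44 to 0.04) that was −0.10 without WT pool 3. The mean of both sets gave −0.11. Both sets have intervals that reach past 1.2-fold. Of 9 genes that work with Grm6 in the retina, 4 were brighter than the median gene.

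**Figure D2:**
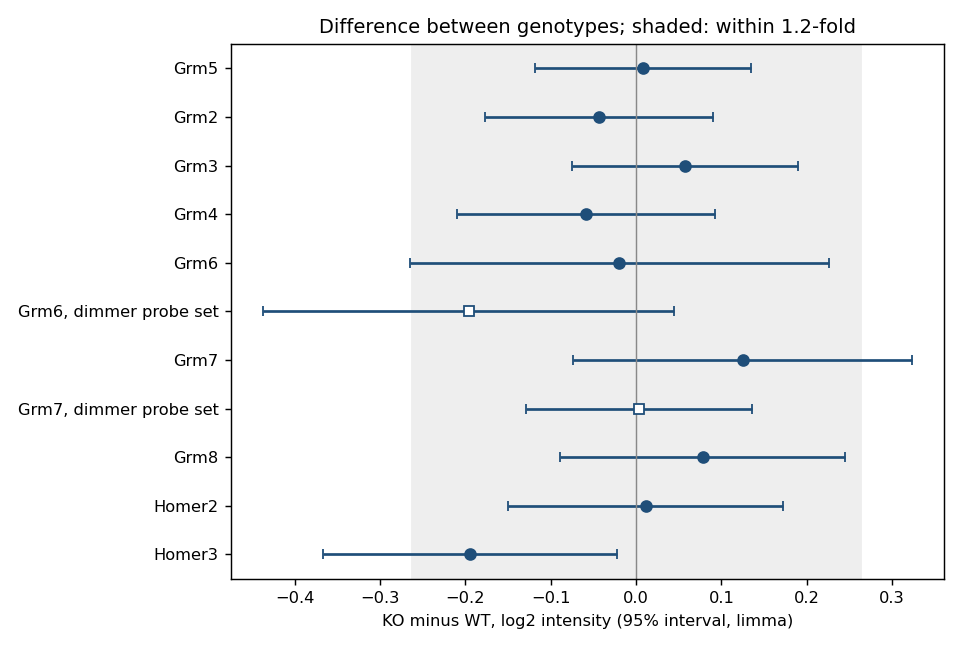
KO minus WT in log2 intensity with 95% limma intervals for the 11 probe sets (circles for the brightest of a gene, open squares for the dimmer sets of Grm6 and Grm7); shading marks differences under 1.2-fold. The interval of Homer3 lies wholly below 0, and the other 10 include 0.

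Homer3, like Grm6 dimmer than the median gene, was lower in every KO pool than in any WT pool. It read 6.83, 6.75 and 6.94 in WT and 6.55, 6.69 and 6.69 in KO (probe set 17501877). The gap between the lowest WT and the highest KO pool was 0.06, narrower than the range within WT (0.18) or within KO (0.14). The WT pools averaged 6.84 ± 0.09 (SD, n = 3), whereas the KO pools averaged 6.65 ± 0.08 (SD, n = 3). KO minus WT was −0.19 (SE 0.07, 95% interval −0.37 to −0.02), or 1.14-fold lower in KO, with an unadjusted limma p of 0.031 and an adjusted p of 0.74. It was thus the 1 gene of 9 without overlap between groups, where 13.7% of all genes had none, and the two-sided exact permutation test gave p = 0.1, the smallest that 3 pools against 3 allow. The direction was kept under all alternatives run, with values from −0.24 to −0.15, but the unadjusted p was 0.060 without WT pool 1, 0.11 without WT pool 3 and 0.098 without KO pool 1.

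Other probe sets near Homer3 and of its family did not show this difference. Ddx49, an RNA helicase gene, is the neighbor of Homer3 in the gene table, and 1 probe set is assigned to both. It read 8.36, 8.28 and 8.37 in WT and 8.32, 8.37 and 8.37 in KO, a difference of 0.02 (SE 0.06, with an unadjusted limma p of 0.81). Within a pool, Homer3 minus this shared set averaged −1.50 ± 0.05 (SD, n = 3) for WT, whereas KO gave −1.71 ± 0.05 (SD, n = 3). As the shared set hardly differed, this mostly restates the Homer3 difference and is not a separate test of it. Which transcripts the shared set reads was not tested.

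Homer2, which like Homer3 links receptors through its coiled coil, read 8.10, 8.04 and 8.14 in WT and 8.13, 8.18 and 8.01 in KO. KO pools 2 and 3 were the highest and the lowest of the 6. The difference was 0.01 (SE 0.07, 95% interval −0.15 to 0.17, adjusted p = 0.98 from limma), with a sign that turned to −0.03 without KO pool 2 and to −7.5e-05 after repeated quantile normalization. Homer3 minus Homer2 within a pool averaged −1.25 ± 0.04 (SD, n = 3) for WT, whereas KO gave −1.46 ± 0.13 (SD, n = 3), a difference of −0.21. With Homer2 nearly unchanged, this value too mostly restates the Homer3 difference. Homer1, whose short form is induced by neuronal activity, is not among the 9 genes and was added after its values were seen. It read 8.70, 8.50 and 8.50 in WT and 8.60, 8.52 and 8.57 in KO, a difference of −0.001 (SE 0.07).

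**Figure D3:**
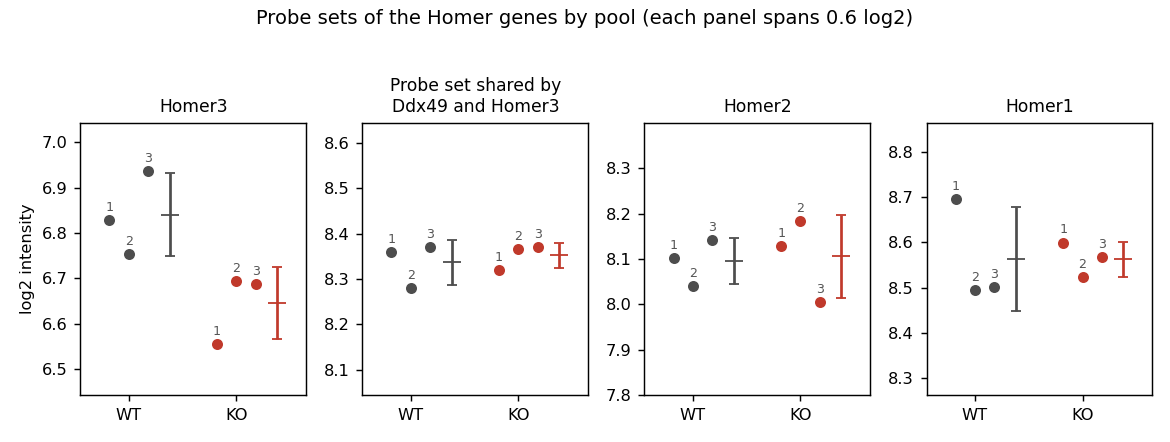
Log2 intensity of the probe sets of the Homer genes in each pool (numbered points), with the mean and SD of 3 pools per genotype, and all panels to 1 scale. WT (grey) and KO (red) are apart for Homer3 and overlap for the set shared with Ddx49, for Homer2 and for Homer1.

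The pools also differed in markers of other cells, and these values stand beside those of Homer3. All 7 measured choroid plexus markers were higher in KO on average. Their mean was 8.66 in KO pool 1, the pool with the lowest Homer3, against 7.22 to 7.50 in the other KO pools and 7.13 to 7.30 in WT. The dimmest of these markers had a mean of 5.69, and Ttr, the transport protein that defines the choroid plexus, reached 13.00 in KO pool 1. Without that pool the Homer3 difference was −0.15. Striatal markers were lower in KO in 16 of 17 genes. Their mean was 8.85, 8.91 and 8.49 in WT pools 1 to 3 and 8.41, 8.47 and 8.80 in KO pools 1 to 3. Homer3 was highest in WT pool 3 and lowest in KO pool 1. Oligodendrocyte markers were lower in KO in 11 of 13 genes, with means of 8.91 to 9.04 in WT and 8.60 to 9.004 in KO. Thalamus and habenula markers, which include Slc17a6, were higher in KO in 8 of 12 genes, with means of 7.48 to 7.59 in WT and 7.59 to 7.62 in KO. In 5 of them (41.7%) the groups did not overlap, against 13.7% of all genes. Of these 5, Gbx2 was lower in KO (−0.12) and the others higher. Microglia markers were lower in KO in 7 of 11 genes, with means of 8.11 to 8.19 in WT and 8.07 to 8.14 in KO. In 3 of them (27.3%) the groups did not overlap, and these were all lower in KO. Endothelial and mural cell markers were lower in KO in 9 of 12 genes, with means of 8.07 to 8.10 in WT and 8.02 to 8.14 in KO. The 3 without overlap (25%), Rgs5, Tek and Slco1a4, were all higher in KO. Marker means for all neurons lay between 10.92 and 10.996 in all pools. In 4 of these 12 genes (33.3%) the groups did not overlap. Rbfox3 and Eno2 were lower in KO, and Snap25 and Syt1 were higher. The part of these differences in the values of Homer3 was not tested.

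**Figure D4:**
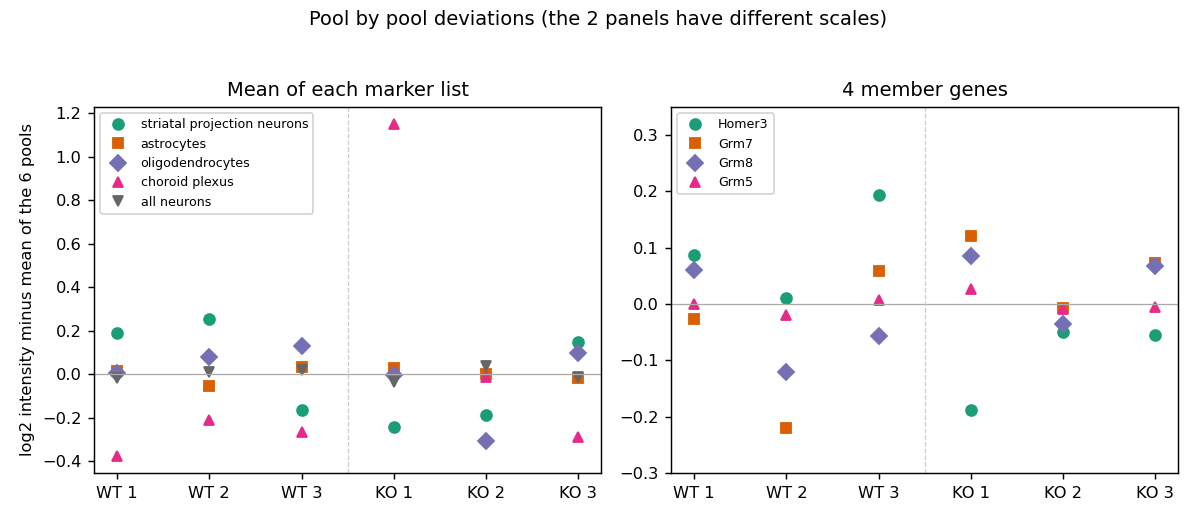
Deviation of each pool from the mean of the 6 pools, in log2 intensity, for the mean of 5 marker lists (left) and for 4 of the 9 genes (right, on a narrower scale). Choroid plexus markers stand apart in KO pool 1, the pool with the lowest Homer3 and the highest Grm5, Grm7 and Grm8.

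Across the 6 pools the members did not follow each other beyond what the number of pools can show. Of 36 pairs of the 9 genes, none reached a permutation p under 0.05 for Pearson's r or Spearman's rho. The largest r were 0.80 for Grm2 with Homer3 (two-sided exact permutation p = 0.060) and 0.80 for Grm5 with Grm7 (p = 0.069 by the same test). Grm7 and Grm8 share their highest and lowest pools, as does Grm5. These 2 genes had r = 0.74 (two-sided exact permutation p = 0.064, adjusted over 36 pairs p = 0.82) and rho = 0.77 (exact permutation p = 0.10, adjusted p = 0.87). Without the 2 pools farthest from the median of Grm7, r of Grm7 with Grm8 was −0.07 over the 4 pools left. Leaving out these extremes narrows the range of Grm7, which by itself can lower r. The value therefore cannot decide whether the relation holds. Within a genotype there were only 3 pools, with r = 0.54 in WT and r = 0.97 in KO.

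The genes with the profile most like that of a member over the 6 arrays were sought among 11090 genes brighter than the median, by correlation, as a description. For Homer3 they were Slc16a13, a monocarboxylate transporter gene, the microRNA gene Mir337 and Dnajc4, a gene of the DnaJ chaperone family (r from 0.985 to 0.992). KO minus WT was −0.12, −0.29 and −0.09 for these. The shared direction follows from the choice, as the correlation ran over both genotypes and Homer3 was lower in all KO pools. For Grm5 they were Ano4, of a family of membrane channels and lipid scramblases, Rpl15, a ribosomal protein gene, and Cpne3, a calcium-binding copine gene (r from 0.994 to 0.995), whose differences were 0.05, 0.05 and 0.07, but the profile of Grm5 spans only 0.05 on the log2 scale. With 6 arrays and this many genes some profiles match closely whatever they encode.

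Related genes were examined on 6 lists, by the signaling or binding partner they serve. Of 104 genes listed, 92 were measured, of which 47 lay higher in KO and 45 lay lower. Their median difference was 0.0031 on the log2 scale. The groups did not overlap in 14 of the 92 (15.2%), near the 13.7% of all genes. In limma none had an adjusted p under 0.05 when all probe sets were counted. At an unadjusted limma p under 0.05 were 8 (8.70%, against 6.52% of all genes), 4 higher and 4 lower, with adjusted p of 0.73 to 0.74. By the methods' t-test 8 were as well, against 6.38% of all genes. These held Plcb4, Plcb1 and Cacna1b in place of Arc, Ppp1cc and Slc7a11. The fold and p that the methods asked for were met in limma by 2 of 92, Arc and Slc7a11, against 3.01% of all genes. In the methods' t-test 1 of 92, Slc7a11, met them, against 1.82%.

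Among genes of Gq signaling and others tied to group I receptors, 12 of 19 measured lay higher in KO, 7 lay lower and the median difference was 0.03. Siah1a, a ubiquitin ligase that binds group I receptors, had the smallest p. It read 7.72, 7.54 and 7.72 in WT and 7.88, 7.89 and 7.93 in KO without overlap, a difference of 0.24 (SE 0.07, with an unadjusted limma p of 0.0093), and it stayed between 0.18 and 0.27 without any 1 pool. Arc, an activity-induced gene whose protein promotes removal of glutamate receptors from the membrane, read 9.53, 9.17 and 9.35 in WT and 8.93, 9.002 and 9.27 in KO, a difference of −0.28 (SE 0.12) with overlap that was −0.19 without WT pool 1. Plcb4, a phospholipase C isoform that follows Gq, averaged 8.37 ± 0.03 (SD, n = 3) for WT, whereas KO gave 8.50 ± 0.01 (SD, n = 3), a difference of 0.12 (SE 0.05).

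Of 19 binding partners of Homer proteins, 7 lay higher in KO, 12 lay lower and the median difference was −0.02. Shank3 was the 1 gene at an unadjusted limma p under 0.05. Shank3, a postsynaptic scaffold that Homer joins to group I receptors, read 9.47, 9.43 and 9.43 in WT and 9.17, 9.32 and 9.31 in KO. Like Homer3 it did not overlap and was lowest in KO pool 1. Its difference was −0.18 (SE 0.06), and −0.13 without KO pool 1. A dimmer probe set of Shank3 was 0.13 higher in KO (SE 0.08), so that the mean of both gave −0.03. Cdc42, a small GTPase that binds Homer2, differed by 0.13 (SE 0.07) on its brightest set and by −0.33 (SE 0.14) on a dim one. Dlgap1, which lies between PSD-95 and Shank, differed by 0.13 (SE 0.07).

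Of 21 Gi/o signaling genes, which serve group II and III receptors, 10 lay higher in KO, 11 lay lower and the median difference was −0.0064. Adcy6, an adenylyl cyclase that Gi proteins inhibit, read 9.17, 9.09 and 9.17 in WT and 8.91, 8.99 and 8.97 in KO without overlap. Its difference was −0.19 (SE 0.06, with an unadjusted limma p of 0.013). Gnb4, a G protein beta subunit gene, differed by 0.14 (SE 0.07), or 0.093 without KO pool 2, and Adcy1, a calcium-stimulated cyclase gene, by −0.12 (SE 0.07).

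Of 9 synaptic partners of group III receptors, 2 lay higher in KO, 7 lay lower and the median difference was −0.03. Ppp1cc, a protein phosphatase 1 catalytic subunit that binds the tail of Grm7, read 8.21, 8.00 and 7.98 in WT and 7.93, 7.72 and 7.86 in KO, a difference of −0.23 (SE 0.09) that was −0.16 without WT pool 1. Pias1, a SUMO ligase, differed by 0.09 (SE 0.06) and Elfn2, a synaptic adhesion protein that binds group III receptors, by −0.06 (SE 0.07). Pias1 was 0.056 without WT pool 2, and Elfn2 ran from −0.118 without KO pool 2 to −0.0045 without KO pool 1. Of the 9 retinal partners of Grm6, 5 lay higher in KO, 4 lay lower and the median difference was 0.02. Rgs7, a brain and retina protein that speeds the turn-off of Go, read 10.50, 10.45 and 10.51 in WT and 10.63, 10.61 and 10.64 in KO without overlap, a difference of 0.14 (SE 0.05, with an unadjusted limma p of 0.036). Rgs11, which shares this role in ON bipolar cells, differed by −0.08 (SE 0.10) and Gpr179, which holds these proteins at the dendrite tips, by −0.09 (SE 0.12), and both turned in sign without 1 pool.

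Of 15 genes that make, move or break down glutamate and NAAG, 11 lay higher in KO, 4 lay lower and the median difference was 0.04. Slc7a11, the cystine and glutamate exchanger of glia that supplies glutamate outside synapses, read 9.29, 9.45 and 9.65 in WT and 9.92, 9.63 and 9.72 in KO. The groups overlapped, and the difference of 0.29 (SE 0.11) was 0.20 without WT pool 1. A dim second probe set of Slc7a11 differed by −0.13 (SE 0.12), and the mean of both by 0.08. Naalad2, an enzyme gene of NAAG breakdown, was dim but did not overlap, with 5.41, 5.52 and 5.39 in WT and 5.67, 5.67 and 5.59 in KO, a difference of 0.20 (SE 0.06). Slc17a6, a vesicular glutamate transporter typical of subcortical neurons, differed by 0.18 (SE 0.10) and by 0.08 without WT pool 2.

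**Figure D5:**
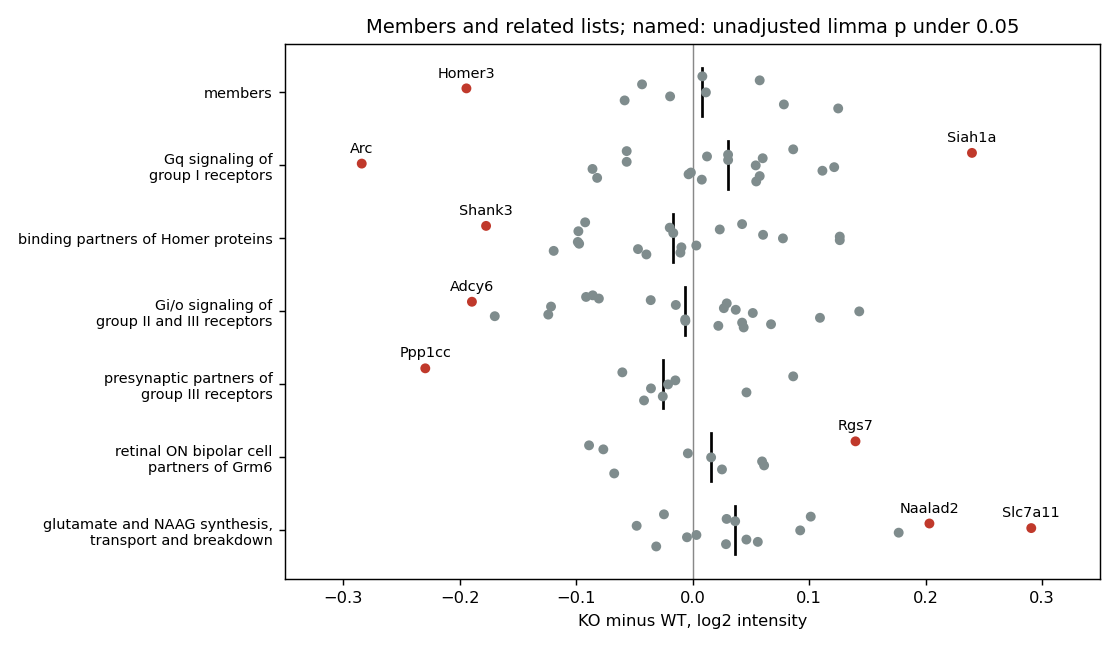
KO minus WT in log2 intensity for each gene (points) of the 9 members and of 6 related lists, with the median of each list as a bar. Genes with an unadjusted limma p under 0.05 are red and named: 1 member (Homer3) and 8 of 92 list genes, 4 on each side of 0.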

How the data were processed

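Pools of amygdala tissue, 3 WT and 3 KO, were hybridized to 1 array each. The deposited table holds log2 intensities, produced by the authors with GCOS and RMA, tools that the submitters' processing notes list without versions. RMA corrects background, makes the arrays' distributions alike and summarizes each set of probes. That the scale is log2 was judged from the range of the values (1.57 to 13.78). Raw probe files were not used here, so the normalization was taken as it stands, and it presumes like distributions in all arrays. Arrays were assigned to genotype and replicate number by the sample titles.

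The difference between genotypes, without covariates, was estimated in R 4.3.3 with limma 3.58.1 (functions lmFit and eBayes) on the 23521 probe sets of the table that the platform annotation pairs with exactly 1 symbol. Probe sets with several symbols (1820) and unlisted ones (16004) were left out. Entrez identifiers of all 9 members matched the gene table of assembly GRCm38.p6. P-values were adjusted over all probe sets tested. The fit, its intervals and the methods' t-test were tested on simulated data. The precision of every value is limited by the 3 pools per group. P-values set a difference against the spread between pools, not between animals. In limma the spread of a gene is estimated partly from that of all probe sets tested. For Grm5, whose pools lay close together, the unadjusted p was therefore 0.88 by limma and 0.59 by the methods' t-test.

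The text names all members and their other probe sets, Itpka, in each list the 3 genes with the smallest p and those past the thresholds of the methods, and the 3 genes most correlated with Grm5 and with the member of smallest p. Members and lists were chosen with earlier results of these data known. Alternatives were the methods' t-test, eBayes with trend and robust estimation, array centering, repeated quantile normalization, only brighter probe sets, all probe sets, the mean over the probe sets of a gene, array weights, a block for the replicate number and each pool left out. A protein comparison planned for the members was not run. Figures were drawn with matplotlib 3.10.9.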

Additional observations from a re-analysis of the deposited data

How the results depend on the processing

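Of the 9 members, Grm2, Grm3, Grm4, Grm7, Grm8 and Homer3 kept their direction under every alternative that gave a value. Grm6 and Homer3 were too dim for the setting with only brighter probe sets. No member passed an adjusted p under 0.05 or the thresholds of the methods in any setting. Repeated quantile normalization gave −0.013 for Grm5, −7.5e-05 for Homer2 and −0.0074 for the dimmer set of Grm7, so that 3 members rather than 5 were higher in KO. Array weights gave −0.00011 for Grm5, 0.036 for Grm6, −0.0044 for Homer2 and −0.014 for the dimmer set of Grm7. With each pool left out, Grm5 ran from −0.0032 to 0.015, Grm6 from −0.12 to 0.081, Homer2 from −0.028 to 0.061, the dimmer set of Grm7 from −0.020 to 0.025, Homer1 from −0.035 to 0.065, Gpr179 from −0.19 to 0.014 and Rgs11 from −0.15 to 0.024. Homer1 was 0.0067 with arrays centered, and Cdc42 −0.10 as the mean of its probe sets. The cause of these turns was not tested.

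The number of members at an unadjusted p under 0.05 was 0 with only brighter probe sets, which leave out Homer3, and 0 to 1 with a pool left out. Probe sets past an adjusted p under 0.05 numbered 2 in the fit as reported, 0 by the methods' t-test (where Itpka had an adjusted p = 0.24), 10 with trend and robust estimation, 7 with arrays centered or weighted, 1 with brighter sets only, 50 among all probe sets and 1 to 6 with a pool left out. Genes past the thresholds of the methods numbered 667, and 403 by the t-test, 123 with brighter sets only and 718 to 1019 with a pool left out. Pools of the same number did not deviate together (correlations −0.03, 0.09 and −0.01), so the number was not taken as a pairing. The replicate block left 1 probe set past the adjusted test, called no member and left Homer3 at an unadjusted p of 0.042.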
